A study of Homo sapiens with 28 samples.

Results

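The genes that copy DNA in S phase were followed through RNA-seq of LNCaP cells, an androgen-sensitive line from a human prostate cancer metastasis. They were 49 genes chosen by known function, and with earlier results of these data known. The set covers origin licensing, helicase activation, the polymerases, the sliding clamp and its loader, nucleotide supply, the E2F factors with cyclin E, and the copying of chromatin. All 49 were found among the 26443 named genes, and all 49 passed the filter on low values in both experiments. The knockdown experiment held 8 groups of 2 libraries. Cells carrying 1 hairpin against *HOXB13* (shHOXB13) were grown with shp300, with shCBP, with both (shp300/CBP) or with no added hairpin, and cells carrying the control vector (shCtrl) were grown in the same 4 ways. The CCS1477 experiment held 4 groups of 3 libraries, in which shHOXB13 and shCtrl cells received 250 nM CCS1477, an inhibitor of the p300 and CBP bromodomains, or the solvent DMSO for 48 h.

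Each target was reached by 1 hairpin sequence, *HOXB13* from a pGIPZ vector with its matching control vector and p300 and CBP from pLKO.1, so that a change shared by all cells with a hairpin cannot be told apart from an effect of that hairpin on other transcripts. Whether cells without shp300 or shCBP received an empty second vector was not given in the sources used here. The methods describe the experiments as biological duplicates or triplicates.

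DNA replication is prepared in G1, when ORC, CDC6 and CDT1 load the MCM2-7 helicase onto origins. At the start of S phase, CDC45 and the GINS complex join MCM2-7 to form the active helicase, and the polymerases, the clamp PCNA and its loader RFC follow it. Most of these genes are transcribed once the retinoblastoma proteins release the activating E2F factors, so that their RNA is high in dividing cells and low in resting ones. HOXB13 is a homeobox factor of the prostate lineage that works with the androgen receptor, and p300 and CBP are related acetyltransferases that act as coactivators.

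The promoters of the genes carry the E2F motif more often than other promoters. The 5 shown belong to the genes with the largest falls below among those with a motif. *RRM2*, *ASF1B* and *CDC45* also had large falls, but their windows held no motif. The motif was searched as the letters TTTCCCGC, TTTCGCGC, TTTGCCGC or TTTGGCGC on both strands, in windows that run from 250 bases before to 50 bases after each start (RefSeq, GRCh38.p14). Windows were at hand for 41 of the 49 genes, and 22 of these 41 held the motif. It stood in 43.4% of their 53 windows, against 3.31% of all 35116 windows. The CHR motif TTTGAA, which marks many promoters of mitosis genes, stood in 3.77% of the windows of replication genes, against 15.2% of all windows. Capitals mark the E2F motif in each stretch, read along the gene's strand.
*TYMS* (chr18:657574-657661, + strand; motif from 39 bases before the start): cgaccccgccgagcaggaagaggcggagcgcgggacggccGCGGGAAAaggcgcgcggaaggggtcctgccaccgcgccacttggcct
*POLE2* (chr14:49688172-49688259, − strand; motif from 5 bases before the start): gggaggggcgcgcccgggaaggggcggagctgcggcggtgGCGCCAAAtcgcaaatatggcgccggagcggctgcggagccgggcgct
*E2F1* (chr20:33686358-33686458, − strand; motifs from 33 and 20 bases before the start): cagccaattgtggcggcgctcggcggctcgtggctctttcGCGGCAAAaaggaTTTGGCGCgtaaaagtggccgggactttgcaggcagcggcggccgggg
*UHRF1* (chr19:4909447-4909534, + strand; motif from 14 bases before the start): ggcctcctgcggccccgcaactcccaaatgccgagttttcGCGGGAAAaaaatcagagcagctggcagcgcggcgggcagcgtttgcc
*CDC6* (chr17:40287846-40287928, + strand; motif from 7 bases after the start): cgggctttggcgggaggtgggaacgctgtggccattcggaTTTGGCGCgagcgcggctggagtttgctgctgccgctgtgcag

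Values are FPKM, read fragments scaled to transcript length and to the mapped reads of the library, so that levels can be compared between genes. Differences are given on the log2(FPKM + 0.1) scale with their standard error (SE), and a gene was called when its Benjamini-Hochberg adjusted p from limma, taken over all genes tested, was under 0.05. Each library held 7458934 to 16338537 mapped reads, as recovered from the FPKM steps. Reads in named genes took 52.6% to 74.2% of mapped reads in the knockdown experiment and 78.3% to 83.9% in the CCS1477 experiment. *HOXB13* was lower in every shHOXB13 library than in its controls (−2.93 in the knockdown experiment and −2.22 with DMSO, log2). *EP300* fell with shHOXB13 alone (−0.92) and with shp300 (−1.24 in shCtrl cells and −0.79 in shHOXB13 cells), and *CREBBP* fell with shCBP in shCtrl cells (−0.95) but was not called with shCBP in shHOXB13 cells (−0.64, limma adjusted p = 0.0638). In shHOXB13 cells with both hairpins, neither *EP300* (−0.41, limma adjusted p = 0.0729) nor *CREBBP* (−0.27, limma adjusted p = 0.227) was called. These are RNA levels. The study also checked the knockdown of p300, CBP and HOXB13 protein by Western blot in LNCaP cells, which was not examined here. All 10 luminal prostate markers were at 1 FPKM or more in every library and summed to 1291 to 7284 FPKM. Summed levels were 0.0900 to 4.72 FPKM for 5 basal, 1.6 to 18.4 FPKM for 7 fibroblast, 2.53 to 41.2 FPKM for 7 immune and 0.498 to 5.56 FPKM for 6 neuroendocrine markers. Nearly all of the immune sum was *CD68*, while *PTPRC* stayed at or below 0.0150 FPKM.

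*HOXB13* knockdown lowered nearly the whole replication set in both experiments. In the knockdown experiment, 42 of the 49 genes fell and 0 rose in shHOXB13 relative to shCtrl cells, where 30.8% of all genes tested fell and 8.45% rose. Their median log2 difference was −1.36, against −0.33 over all genes. With DMSO, 48 of 49 fell and 0 rose (42.4% and 15.2% of all genes), with a median of −1.91 against −0.33. The experiments share no library. Across the 49 genes the differences of both experiments had a Pearson r of 0.752 and a Spearman rho of 0.821, given as a description since the genes share libraries and cells. In bulk RNA, fewer cells in S phase and less of these RNAs per cell cannot be told apart.

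**Figure D1:**
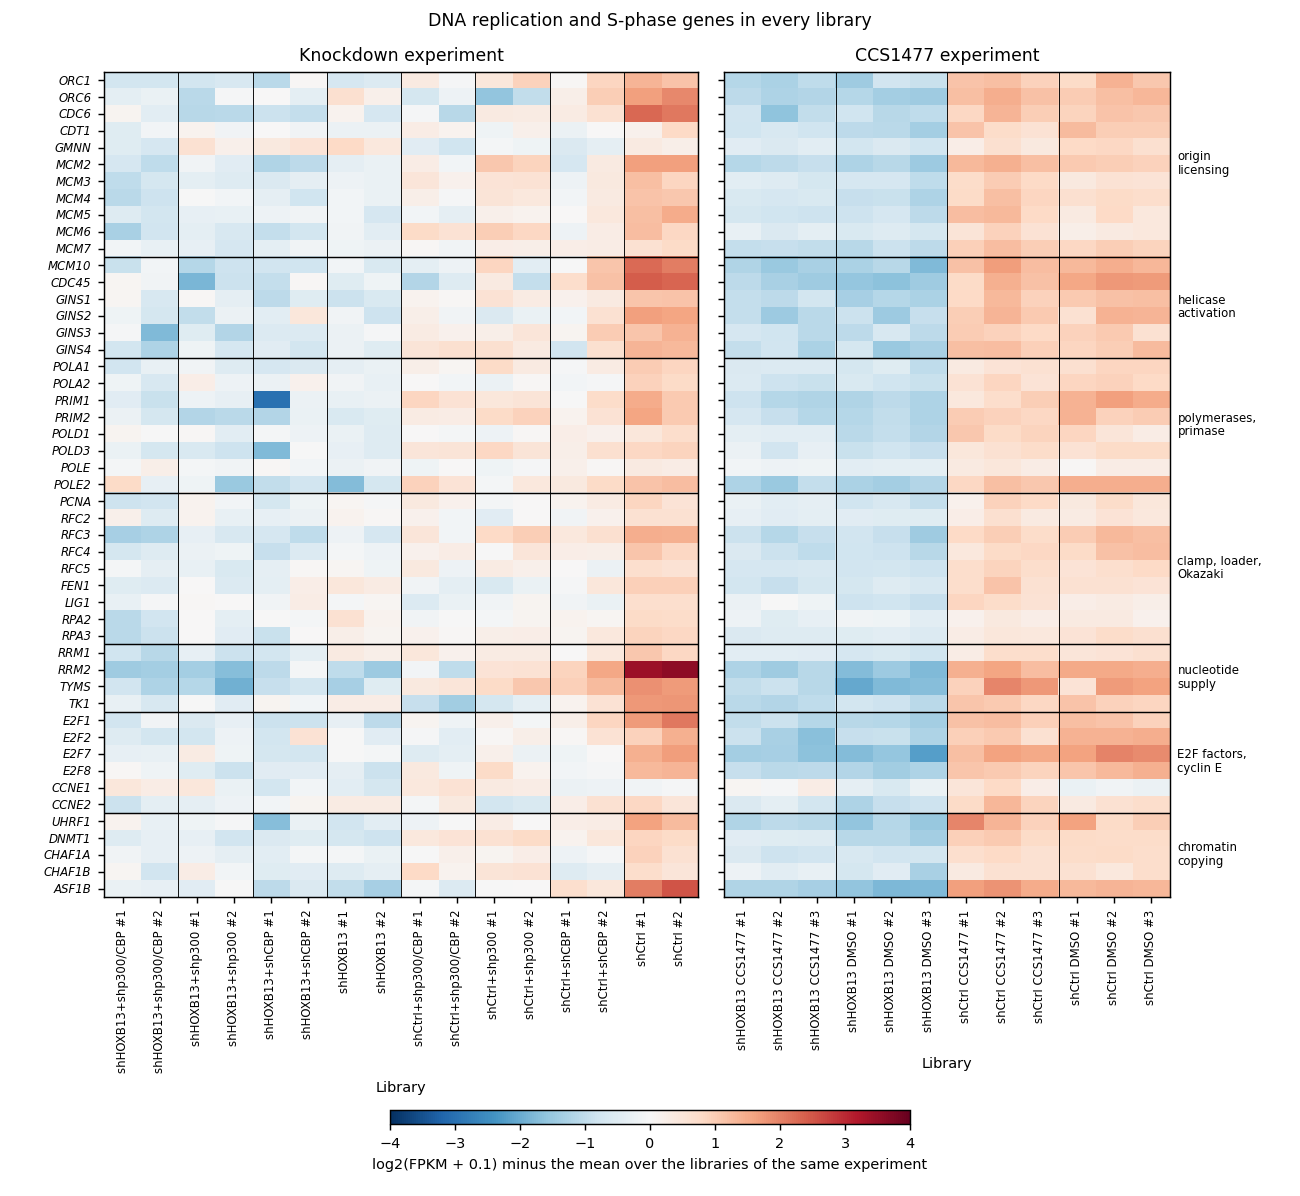
Level of each of the 49 replication genes (down the page, by role) in each of the 28 libraries (across, by group), as log2(FPKM + 0.1) minus the mean over the libraries of the same experiment, on a colour scale cut at −4 and 4. The shHOXB13 columns are low for nearly every gene in both experiments, and the shCtrl columns without a second hairpin are the highest of the knockdown experiment for most genes, *GMNN* and *CCNE1* aside.

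Nucleotide supply had the lowest medians of the 7 roles, with 4 of 4 genes lower in each experiment and median log2 differences of −2.05 in the knockdown experiment and −2.49 with DMSO. *RRM2* (chr2:10120698-10211725, + strand, hg38) encodes the S-phase subunit of ribonucleotide reductase, which makes deoxynucleotides. It had 0.163 and 0.0918 FPKM in shHOXB13 libraries, against 5.55 and 6.20 FPKM in shCtrl libraries. With DMSO it had 5.31, 6.49 and 5.26 FPKM in shHOXB13 libraries, against 51.7, 51.2 and 49.4 FPKM in shCtrl libraries. The groups lay far apart in both experiments, with log2 differences of −4.73 ± 0.40 (SE, limma adjusted p = 5.55e-06) and −3.14 ± 0.11 (SE, limma adjusted p = 1.17e-09). The shHOXB13 values of the knockdown experiment rest on 7 and 3 reads, so that the size of the fold depends on the pseudocount: the log2 difference was −2.61 with 1 FPKM added and −5.47 with 0.01 added. *TYMS*, thymidylate synthase, had 0.808 and 1.53 FPKM in shHOXB13 libraries and 7.91 and 7.19 FPKM in shCtrl libraries (−2.65 ± 0.31, limma adjusted p = 6.69e-05). With DMSO it had 1.74, 2.13 and 2.24 FPKM in shHOXB13 libraries, against 11.1, 24.4 and 23.0 FPKM in shCtrl libraries (−3.12 ± 0.30, limma adjusted p = 3.39e-06). The shCtrl DMSO library 1 was the lowest of its group for *TYMS* and still lay above all shHOXB13 DMSO libraries. *TK1*, the salvage enzyme thymidine kinase, differed by −1.45 and −1.85, and *RRM1*, the large reductase subunit, by −0.66 and −1.24. *RRM1* remained well expressed in shHOXB13 cells, at 12.1 and 11.1 FPKM.

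Helicase activation had 6 of 6 genes lower in each experiment and medians of −1.98 and −2.30. *CDC45*, which joins MCM2-7 and GINS in the running helicase, had 0.308 and 0.405 FPKM in shHOXB13 libraries, against 2.97 and 2.76 FPKM in shCtrl libraries (−2.71 ± 0.49, limma adjusted p = 0.00106). With DMSO it had 1.72, 1.63 and 1.87 FPKM in shHOXB13 libraries and 15.5, 17.6 and 17.4 FPKM in shCtrl libraries (−3.20 ± 0.16, limma adjusted p = 1.66e-08). No library of one group reached the other in either experiment. *MCM10*, needed to start the helicase, fell by 2.51 and 2.75 on the log2 scale. The GINS subunits *GINS1*, *GINS2*, *GINS3* and *GINS4* differed by −1.87, −2.09, −1.39 and −1.70 in the knockdown experiment. With DMSO these 4 differences were −2.40, −2.20, −1.77 and −2.19.

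Of the origin licensing genes, 10 of 11 fell in the knockdown experiment and 11 of 11 with DMSO, with medians of −1.31 and −1.91. *CDC6*, which loads the helicase with CDT1, had 0.811 and 0.413 FPKM in shHOXB13 libraries, against 3.94 and 3.49 FPKM in shCtrl libraries (−2.48 ± 0.36, limma adjusted p = 0.000273). *MCM2*, a helicase subunit, had 2.51 and 2.64 FPKM in shHOXB13 libraries and 10.2 and 10.3 FPKM in shCtrl libraries (−1.95 ± 0.28, limma adjusted p = 0.000232). With DMSO, *MCM2* had 6.82, 7.34 and 5.76 FPKM in shHOXB13 libraries, against 33.3, 32.1 and 30.9 FPKM in shCtrl libraries (−2.26 ± 0.10, limma adjusted p = 5.77e-09). Both genes were lower in every shHOXB13 library. All 6 MCM2-7 genes fell. In the knockdown experiment *MCM2*, *MCM3*, *MCM4*, *MCM5*, *MCM6* and *MCM7* differed by −1.95, −1.27, −1.29, −1.73, −1.31 and −0.90. The exception was *GMNN*, geminin, which holds CDT1 inactive after origins have fired. It had 16.7 and 12.9 FPKM in shHOXB13 libraries and 12.3 and 11.4 FPKM in shCtrl libraries, which is not a call (0.30 ± 0.18, limma adjusted p = 0.199). With DMSO *GMNN* had 10.5, 11.7 and 9.99 FPKM in shHOXB13 libraries, against 30.3, 31.3 and 27.5 FPKM in shCtrl libraries, and was called lower (−1.46 ± 0.10, limma adjusted p = 2.62e-07).

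Of the polymerase and primase genes, 7 of 8 fell in the knockdown experiment and 8 of 8 with DMSO, with medians of −1.26 and −1.63. *POLE2*, the second subunit of the leading-strand polymerase, had 0.0822 and 0.270 FPKM in shHOXB13 libraries, against 1.23 and 1.32 FPKM in shCtrl libraries (−2.40 ± 0.49, limma adjusted p = 0.00239). With DMSO the *POLE2* difference was −2.73 ± 0.16 (SE, limma adjusted p = 7.69e-08). *POLE*, the catalytic subunit of the same enzyme, fell less, by 0.50 and 0.61 on the log2 scale. *PRIM1*, the primase that makes RNA primers, had 1.69 and 1.80 FPKM in shHOXB13 libraries and 6.14 and 4.47 FPKM in shCtrl libraries. Its difference did not pass the test there (−1.53 ± 0.62, limma adjusted p = 0.0693) and did with DMSO (−2.66 ± 0.15, limma adjusted p = 3.91e-08). The SE is taken over all groups of the experiment, and the shHOXB13 and shCtrl libraries of *PRIM1* lay apart. *PRIM1* was called lower with only the compared groups in the fit, with 1 FPKM added, and at 1 FPKM or more. It was not called with 0.01 FPKM added, no filter, the replicate block or another scaling.

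The clamp, loader and Okazaki fragment genes had the smallest median differences, with 6 of 9 lower in the knockdown experiment and 9 of 9 with DMSO, and medians of −0.67 and −1.22. *PCNA*, the sliding clamp, had 29.3 and 26.7 FPKM in shHOXB13 libraries, against 49.8 and 40.1 FPKM in shCtrl libraries (−0.67 ± 0.17, limma adjusted p = 0.00893). With DMSO it had 24.2, 27.3 and 21.9 FPKM in shHOXB13 libraries and 55.7, 70.0 and 57.5 FPKM in shCtrl libraries (−1.31 ± 0.17, limma adjusted p = 3.24e-05). *PCNA* was still the most abundant member in shHOXB13 cells of both experiments, at less than its control level. The flap nuclease gene *FEN1* (−0.58, limma adjusted p = 0.091), the loader subunit *RFC2* (−0.51, limma adjusted p = 0.111) and *RPA2* (−0.35, limma adjusted p = 0.135), which coats single-stranded DNA, were not called in the knockdown experiment. The ligase *LIG1* fell by 0.67 and 1.12.

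Among the E2F factors and cyclin E, 4 of 6 fell in the knockdown experiment and 5 of 6 with DMSO. *E2F1*, an activator of these promoters, had 1.39 and 0.817 FPKM in shHOXB13 libraries, against 6.09 and 8.0 FPKM in shCtrl libraries (−2.60 ± 0.30, limma adjusted p = 5.82e-05). With DMSO it had 4.96, 4.85 and 4.19 FPKM in shHOXB13 libraries and 25.1, 24.0 and 20.8 FPKM in shCtrl libraries (−2.30 ± 0.11, limma adjusted p = 1.25e-08). The activator *E2F2* and the repressors *E2F7* and *E2F8* also fell in both experiments. *E2F7* had the deepest fall of all members with DMSO, at 0.287, 0.342 and 0.180 FPKM in shHOXB13 libraries and 3.86, 4.98 and 4.70 FPKM in shCtrl libraries (−3.66 ± 0.20, limma adjusted p = 4.33e-08). The cyclin E genes, whose products are partners of CDK2 at the entry to S phase, were the uncalled ones of this group in the knockdown experiment. *CCNE1* had 3.24 and 2.70 FPKM in shHOXB13 libraries and 3.98 and 4.26 FPKM in shCtrl libraries (−0.46 ± 0.23, limma adjusted p = 0.137). With DMSO *CCNE1* had 4.94, 4.14 and 5.19 FPKM in shHOXB13 libraries, against 5.21, 5.67 and 5.39 FPKM in shCtrl libraries, and was the single member not called (−0.19 ± 0.14, limma adjusted p = 0.271). *CCNE2* was called lower with DMSO (−1.55 ± 0.16, limma adjusted p = 7.34e-06) and not in the knockdown experiment (−0.33 ± 0.22, limma adjusted p = 0.272).

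All 5 genes of chromatin copying fell in each experiment, with medians of −1.57 and −1.93. *ASF1B*, a chaperone that hands new histones to the fork, had 0.415 and 0.303 FPKM in shHOXB13 libraries, against 4.06 and 5.64 FPKM in shCtrl libraries (−3.42 ± 0.28, limma adjusted p = 4.03e-06). With DMSO it had 2.65, 2.27 and 2.29 FPKM in shHOXB13 libraries and 20.2, 20.7 and 20.3 FPKM in shCtrl libraries (−3.04 ± 0.09, limma adjusted p = 5.91e-10). *UHRF1*, which brings the maintenance methyltransferase DNMT1 to newly copied DNA, fell by 2.05 and 2.54 on the log2 scale, and *DNMT1* by 1.57 and 1.93. The CAF-1 subunits *CHAF1A* and *CHAF1B*, which deposit histones behind the fork, differed by −0.95 and −1.04 in the knockdown experiment.

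**Figure D2:**
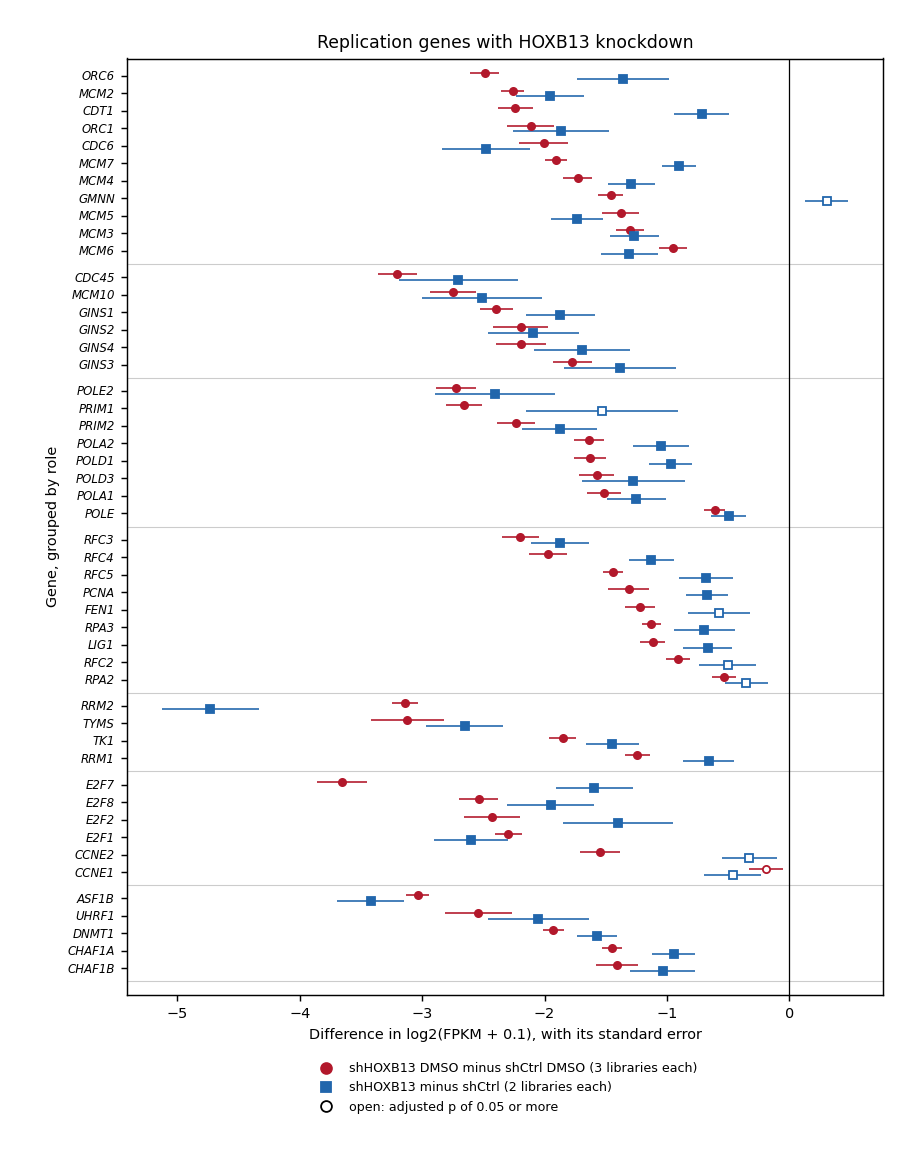
Log2 difference of each of the 49 genes between shHOXB13 and shCtrl cells, by role, in the knockdown experiment (n = 2 per group) and with DMSO (n = 3 per group), with bars of 1 SE. Nearly all points lie below 0, *RRM2* lowest in the knockdown experiment, while *CCNE1* lies near 0 with DMSO and *GMNN* lies above 0 in the knockdown experiment only.

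The counts of the knockdown experiment depended on its pairs of libraries more than those with DMSO did. With any 1 library left out, there were 31 to 34 calls, and 30 genes were called in every such fit, whereas all 48 DMSO calls were kept. Scaling by median-of-ratios moved the median of all genes up by 0.33 (knockdown) and 0.31 (DMSO), and relative to it 30 members fell and *GMNN* rose in the knockdown experiment, while 47 fell with DMSO. The share of all genes called lower was then 15.6% and 26.0%, against 17.3% and 27.3% called higher. Scaling to a common sum (TPM) gave 37 members lower and *GMNN* higher in the knockdown experiment, beside 22.0% and 12.3% of all genes. The share of mapped reads in named genes was 66.3% to 68.8% in shHOXB13 libraries and 72.1% to 74.2% in shCtrl libraries, and its part in these differences was not tested. In the knockdown experiment the median difference was −1.39 for the 22 genes with an E2F motif and −1.36 for the 19 with a window and no motif. The search took exact letters only, so that a window without a motif may still hold a site in other letters. The part of E2F in these differences was not tested.

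Other cell cycle genes were examined beside the set. Of 51 other replication genes, 36 fell and 2 rose in the knockdown experiment, and 44 fell and 3 rose with DMSO, with medians of −0.86 and −1.33. The fall took in *RNASEH2A*, which removes ribonucleotides from DNA (−1.67), and *DUT*, which breaks down dUTP (−1.57 and −1.74). It also took in *CDC7*, the kinase that fires origins (−2.11 with DMSO). The helicase and nuclease gene *DNA2* went the other way in the knockdown experiment (2.62 ± 0.18, limma adjusted p = 1.1e-06). With DMSO no rise of that size was seen, as the highest difference among the 51 genes was 0.57. Of 25 genes of the RB-E2F circuit, 13 fell and 3 rose in the knockdown experiment, and 19 fell and 3 rose with DMSO. *CDKN1A*, which encodes the CDK inhibitor p21, rose by 2.20 and 3.25, and *TFDP1*, the DNA-binding partner of the E2F factors, fell by 1.27 and 1.34. *CDK4*, the cyclin D kinase, differed by −1.08 and −1.57. All 25 mitosis genes fell in each experiment, with medians of −2.92 and −3.20, deeper than those of the replication genes.

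In shCtrl cells, the p300 and CBP hairpins lowered replication genes as well, and none rose. With shp300, 15 of 49 fell (2.19% of all genes fell and 1.05% rose), with a median log2 difference of −0.72 against −0.01 over all genes. With shCBP, 23 fell (8.09% of all genes fell and 4.14% rose), with a median of −0.87 against −0.11. With both hairpins, 31 fell (9.4% of all genes fell and 8.9% rose), with a median of −0.92 against 0.00. The 3 comparisons share the shCtrl libraries, so that they are not independent of each other.

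*RRM2* was among the members that changed most in all 3. It had 0.674 and 0.692 FPKM in shCtrl+shp300 libraries, 0.886 and 1.46 FPKM in shCtrl+shCBP libraries and 0.388 and 0.160 FPKM in shCtrl+shp300/CBP libraries, against 5.55 and 6.20 FPKM in shCtrl libraries. Each of these 6 hairpin libraries was below both shCtrl libraries. The log2 differences were −2.93 ± 0.40 (SE, limma adjusted p = 0.00247), −2.27 ± 0.40 (SE, limma adjusted p = 0.00541) and −4.06 ± 0.40 (SE, limma adjusted p = 8.17e-05). *TK1* was at 3.37 and 4.16 FPKM in shCtrl+shp300, 6.11 and 8.34 FPKM in shCtrl+shCBP and 2.85 and 2.03 FPKM in shCtrl+shp300/CBP libraries, against 18.4 and 18.9 FPKM in shCtrl libraries. All 3 *TK1* differences were called (−2.29, −1.37 and −2.90). With both hairpins, *CDC45* had 0.151 and 0.295 FPKM, against 2.97 and 2.76 FPKM in shCtrl libraries (−3.23 ± 0.49, limma adjusted p = 0.00106). *CDC6* had 0.694 and 0.281 FPKM with both hairpins, against 3.94 and 3.49 FPKM in shCtrl libraries (−2.79 ± 0.36, limma adjusted p = 0.000468). *E2F1* had 1.92 and 1.56 FPKM with both hairpins, against 6.09 and 8.0 FPKM in shCtrl libraries (−1.95 ± 0.30, limma adjusted p = 0.00126).

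With shp300 alone, *ORC6*, a subunit of the origin recognition complex, had 0.439 and 0.704 FPKM, against 4.89 and 6.01 FPKM in shCtrl libraries (−3.07 ± 0.37, limma adjusted p = 0.0017). With shCBP alone *ORC6* had 1.80 and 3.10 FPKM, which was not called (−1.16 ± 0.37, limma adjusted p = 0.0632). *CDC45* with shp300 had 0.625 and 0.191 FPKM and lost its call (−2.69 ± 0.49, limma adjusted p = 0.0121) when 1 library was left out, to a limma adjusted p of 0.0927 without shCtrl replicate 1. With shCBP alone, *MCM2* had 1.99 and 4.13 FPKM (−1.80 ± 0.28, limma adjusted p = 0.00304) and *ASF1B* 1.5 and 1.30 FPKM (−1.71 ± 0.28, limma adjusted p = 0.00378). *CDC6* with shCBP differed by −1.74 ± 0.36 (SE, limma adjusted p = 0.0114), and its limma adjusted p was 0.0945 without shCtrl replicate 1 and 0.0943 without shCtrl+shCBP replicate 1. *RRM2* with shCBP had a limma adjusted p of 0.0630 without shCtrl+shCBP replicate 1. *CCNE1* again stood apart, at 6.0 and 6.6 FPKM with both hairpins and 3.98 and 4.26 FPKM in shCtrl libraries (0.60 ± 0.23, limma adjusted p = 0.0982), and was called higher under TPM scaling.

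By role, both hairpins together lowered 8 of 11 licensing genes, 4 of 6 of helicase activation, 4 of 8 polymerase and primase genes, 5 of 9 of the clamp group, 4 of 4 of nucleotide supply, 3 of 6 E2F and cyclin E genes and 3 of 5 of chromatin copying. Of the 25 mitosis genes, 15 fell with shp300, 18 with shCBP and 23 with both. The single-hairpin counts rest on few libraries. With shp300, 5 calls were left without shCtrl replicate 1 or 2, 6 without shCtrl+shp300 replicate 1 and 8 without its replicate 2, and *ORC6*, *RRM2*, *TK1* and *ASF1B* were called throughout. With shCBP, 5 and 10 calls were left without shCtrl replicate 1 and 2, 3 without shCtrl+shCBP replicate 1 and 17 without its replicate 2, and *MCM2*, *TK1* and *ASF1B* were called throughout. With both hairpins, 17 and 21 calls were left without shCtrl replicate 1 and 2, and 19 and 15 without shCtrl+shp300/CBP replicate 1 and 2, and 14 genes were called throughout. *HOXB13* itself fell in shCtrl cells with shCBP (−0.87) and with both hairpins (−0.81), and the part of that fall in these differences was not tested.

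**Figure D3:**
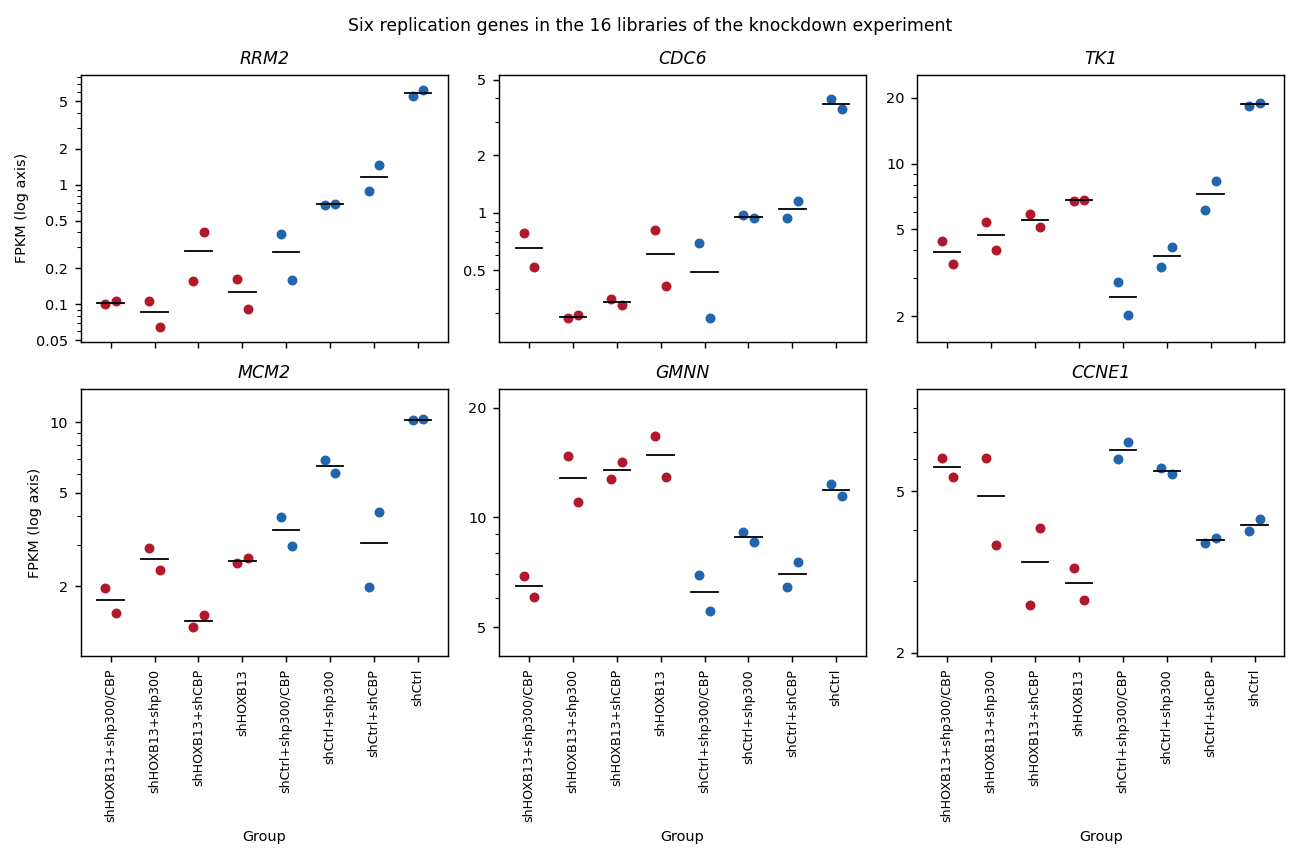
FPKM (log axis) of *RRM2*, *CDC6*, *TK1*, *MCM2*, *GMNN* and *CCNE1* in each of the 16 libraries of the knockdown experiment, with a line at each group's mean. *RRM2* is below 1 FPKM in all 8 shHOXB13 libraries and above 5 FPKM in both shCtrl libraries, while *CCNE1* stays between 2.62 and 6.6 FPKM.

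In shHOXB13 cells, in which most members were already low, the single hairpins moved 1 member or none. With shp300, *RRM1* was the single member that fell and 0 rose (3.44% of all genes fell and 3.5% rose), with a median log2 difference of −0.07. *RRM1* had 7.48 and 5.13 FPKM in shHOXB13+shp300 libraries, against 12.1 and 11.1 FPKM in shHOXB13 libraries (−0.89 ± 0.21, limma adjusted p = 0.0256). That call was lost without shHOXB13 replicate 1 or 2 or shHOXB13+shp300 replicate 2 (limma adjusted p = 0.156, 0.10 and 0.176). With shCBP, which left *CREBBP* itself uncalled in these cells, limma called 0 members in either direction (1.13% of all genes fell and 0.402% rose), with 7 lower and 0 higher at an unadjusted p under 0.05. Between shHOXB13+shp300 and shHOXB13+shCBP cells, 0 members differed (0.718% of all genes were lower and 1.86% higher with shp300), with 2 lower and 7 higher at an unadjusted p under 0.05. These 2 counts hung on replicate 2 of shHOXB13+shCBP: without it 3 members (*PRIM1*, *POLD3* and *RPA3*) were called against shHOXB13, and *PRIM1* was called between both hairpins. *PRIM1* had 0.183 and 1.80 FPKM in the shHOXB13+shCBP libraries.

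With both hairpins in shHOXB13 cells, 12 members fell and 2 rose (16.2% of all genes fell and 10.4% rose), with a median of −0.18 against 0.00 over all genes. The share of members called lower, 24.5%, was above that of all genes. *RPA2*, *RRM1* and *GMNN* had the lowest differences. *RPA2* had 6.02 and 7.57 FPKM in shHOXB13+shp300/CBP libraries, against 19.9 and 14.4 FPKM in shHOXB13 libraries (−1.31 ± 0.18, limma adjusted p = 0.000386). *RRM1* had 5.29 and 4.25 FPKM with both hairpins and 12.1 and 11.1 FPKM in shHOXB13 libraries (−1.27 ± 0.21, limma adjusted p = 0.00123). *GMNN* had 6.91 and 6.04 FPKM with both hairpins and 16.7 and 12.9 FPKM in shHOXB13 libraries (−1.17 ± 0.18, limma adjusted p = 0.000783). In each of these the libraries of both groups lay apart. *RPA3*, another subunit of the single-strand binding complex, differed by −1.12 ± 0.25 (SE, limma adjusted p = 0.00612), and *PCNA*, at 15.5 and 16.3 FPKM with both hairpins and 29.3 and 26.7 FPKM in shHOXB13 libraries, by −0.81 ± 0.17 (SE, limma adjusted p = 0.00527). By role, 5 of 9 clamp genes, 4 of 11 licensing genes, 2 of 4 nucleotide genes and 1 of 6 E2F and cyclin E genes fell, and 0 of the polymerase, primase and helicase activation genes. *CCNE1* rose, at 6.04 and 5.40 FPKM with both hairpins and 3.24 and 2.70 FPKM in shHOXB13 libraries (0.93 ± 0.23, limma adjusted p = 0.0122), while its relative *CCNE2* fell (−0.94 ± 0.22, limma adjusted p = 0.00883). *ASF1B* was called higher at few reads (0.739 and 0.707 FPKM with both hairpins and 0.415 and 0.303 FPKM in shHOXB13 libraries, 0.85 ± 0.28, limma adjusted p = 0.04).

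Leaving out 1 library gave 6 and 9 calls without shHOXB13 replicate 1 and 2, and 7 and 13 without shHOXB13+shp300/CBP replicate 1 and 2. *GMNN*, *PCNA*, *RPA2*, *RPA3* and *RRM1* were called in every such fit, whereas *CCNE1* and *ASF1B* were lost in 2 and 4 of the 4. Under TPM scaling, which moved the median of all genes by 0.19, 7 members fell and 6 rose, beside 10.6% and 19.5% of all genes. The median over members was then 0.01, against 0.19 over all genes. Under median-of-ratios scaling 12 fell and 5 rose, beside 16.4% and 13.9% of all genes. The share of mapped reads in named genes was 52.6% to 61.5% in shHOXB13+shp300/CBP libraries and 66.3% to 68.8% in shHOXB13 libraries, and its part in these differences was not tested. Of 25 genes of the RB-E2F circuit, 5 rose and 4 fell with both hairpins, beside 10.4% and 16.2% of all genes. Among them, *CDKN1B* (−1.76), *RBL2* (−1.37) and *CCND1* (−1.23) fell, and *CDKN1C* rose (1.89).

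The difference between both settings was tested as an interaction, the log2 difference made by shp300/CBP in shHOXB13 cells minus that in shCtrl cells. It was positive for 12 members and negative for 0 (2.54% of all genes were positive and 5.59% negative), with a median of 0.68 over the 49, against −0.02 over all genes. A positive value means that the gene fell less in shHOXB13 cells, did not fall there, or rose. *RRM2* had 0.0993 and 0.107 FPKM in shHOXB13+shp300/CBP and 0.163 and 0.0918 FPKM in shHOXB13 libraries, and 0.388 and 0.160 FPKM in shCtrl+shp300/CBP and 5.55 and 6.20 FPKM in shCtrl libraries. The interaction was 3.92 ± 0.56 (SE, limma adjusted p = 0.00253), and 2.40 and 4.26 with 1 and 0.01 FPKM added. The interaction was 3.51 ± 0.69 (SE, limma adjusted p = 0.011) for *CDC45*, 3.42 ± 0.39 (SE, limma adjusted p = 0.000816) for *ASF1B* and 2.91 ± 0.51 (SE, limma adjusted p = 0.007) for *CDC6*. *TK1*, with more reads, had 4.44 and 3.45 FPKM in shHOXB13+shp300/CBP and 6.76 and 6.78 FPKM in shHOXB13 libraries, and 2.85 and 2.03 FPKM in shCtrl+shp300/CBP and 18.4 and 18.9 FPKM in shCtrl libraries (2.13 ± 0.30, limma adjusted p = 0.00253). *CDC6*, *RRM2*, *TK1*, *E2F1* and *ASF1B* were called in every leave-one-out fit, which gave 6 to 13 calls.

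Depth limits these interactions. Of the 49 members, 6 to 12 had under 10 reads in each shHOXB13 library of the knockdown experiment, against 0 in shCtrl libraries and 2 to 5 in shCtrl libraries with p300 or CBP hairpins. In shHOXB13 libraries *RRM2* had 7 and 3 reads, *CDC45* 8 and 8 reads and *ASF1B* 9 and 5 reads, so that a further fall of these members was not detectable at this depth. *CDC6* had 31 and 12 reads, *E2F1* 47 and 21 reads and *TK1* 135 and 103 reads. *UHRF1* and *E2F7*, whose interactions were called as well, had medians of 0.37 and 0.16 FPKM over all libraries of both experiments. Neither *EP300* nor *CREBBP* was called lower with both hairpins in shHOXB13 cells, and the part of this in the interactions was not tested.

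**Figure D4:**
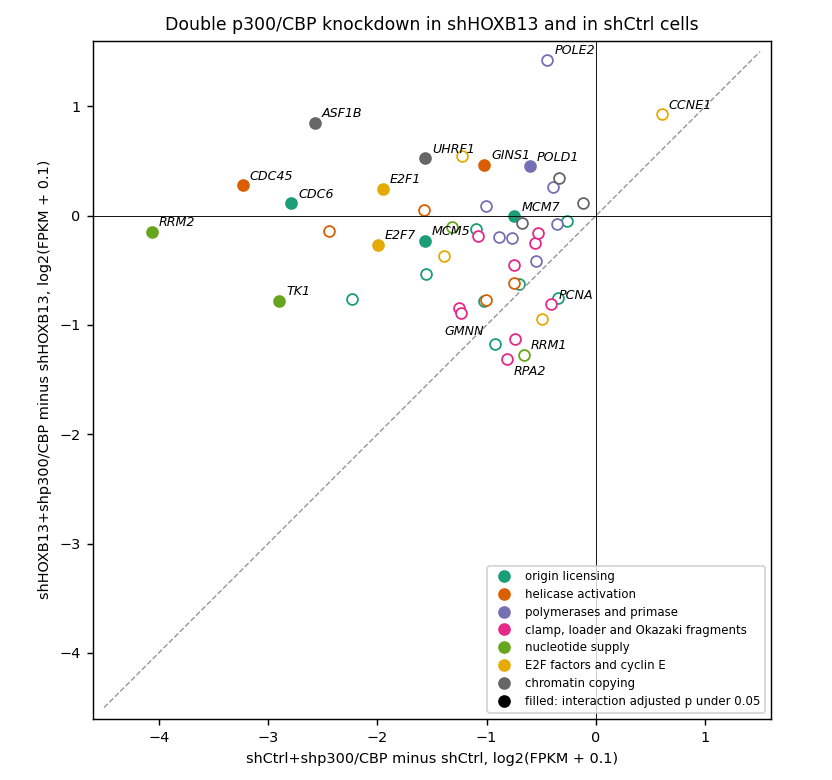
Log2 difference made by shp300/CBP in shHOXB13 cells (vertical axis) against that in shCtrl cells (horizontal axis) for each of the 49 genes, with filled points where the interaction passed the test (limma adjusted p under 0.05, 12 genes) and a line of equal differences. The filled points lie above the line, *RRM2*, *CDC45* and *ASF1B* farthest from it.

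Summed over the 49 genes, the share of mapped reads ordered the groups of the knockdown experiment. It was 0.0360% ± 0.0006 in shHOXB13+shp300/CBP, 0.0398% ± 0.0042 in shHOXB13+shCBP, 0.0418% ± 0.0059 in shHOXB13+shp300 and 0.0466% ± 0.0033 in shHOXB13 cells (SD, n = 2 each). In shCtrl cells it was 0.0554% ± 0.0037 with both hairpins, 0.0572% ± 0.0074 with shCBP, 0.0609% ± 0.0014 with shp300 and 0.0982% ± 0.0032 without them (SD, n = 2 each). The 2 shCtrl libraries were above all others, and every shHOXB13 library, at 0.0489% or less, was below every library of the shCtrl groups, at 0.0520% or more. Neighbours within each set overlapped or nearly did, so that their order is not resolved. Reads in named genes also differed, at 72.1% to 74.2% of mapped reads in shCtrl and 66.3% to 68.8% in shHOXB13 libraries. They took 52.6% to 61.5% in shHOXB13+shp300/CBP libraries, and their part in the order of the groups was not tested. In the CCS1477 experiment the share was 0.0941% ± 0.0028 in shHOXB13 CCS1477, 0.0795% ± 0.0059 in shHOXB13 DMSO, 0.275% ± 0.025 in shCtrl CCS1477 and 0.261% ± 0.007 in shCtrl DMSO cells (SD, n = 3 each). The higher level of shCtrl cells there than in the knockdown experiment cannot be told apart from other differences between the experiments.

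With CCS1477 the set as a whole moved no further than other genes did. In shHOXB13 cells 12 members rose and 0 fell with CCS1477 relative to DMSO, a share of 24.5% that was under the 29.2% of all genes that rose (10.4% fell). The median log2 difference was 0.20, the same as over all genes. *DNMT1* had 12.5, 12.2 and 11.7 FPKM in shHOXB13 CCS1477 libraries, against 7.84, 7.84 and 6.6 FPKM in shHOXB13 DMSO libraries (0.70 ± 0.08, limma adjusted p = 6.43e-05). *LIG1* had 4.38, 5.04 and 4.55 FPKM with CCS1477 and 2.84, 2.92 and 2.64 FPKM with DMSO (0.71 ± 0.10, limma adjusted p = 0.00019). *POLD1*, the catalytic subunit of a lagging-strand polymerase, had 8.47, 8.26 and 8.26 FPKM with CCS1477 and 5.17, 5.65 and 4.82 FPKM with DMSO (0.67 ± 0.13, limma adjusted p = 0.00181). For these 3 genes every CCS1477 library was above every DMSO library. *TYMS* had 3.77, 4.09 and 3.43 FPKM with CCS1477 and 1.74, 2.13 and 2.24 FPKM with DMSO (0.86 ± 0.30, limma adjusted p = 0.0381), a call that was lost without any 1 of the 6 libraries. Its libraries lay apart, and its SE is shared with the shCtrl groups. *TYMS* was called with only these 6 libraries in the fit. It was not called with 1 FPKM added, with no filter or under median-of-ratios scaling. *DNMT1*, *LIG1*, *POLD1* and *ASF1B* were called in every leave-one-out fit, which gave 4 to 9 calls, 4 of them without shHOXB13 CCS1477 replicate 3, 6 without its replicate 1 and 7 without shHOXB13 DMSO replicate 3. With median-of-ratios scaling, which moved the median of all genes by −0.19, 4 members rose (the same 4 genes) and 5 fell (*RPA2*, *FEN1*, *TK1*, *CHAF1A* and *RPA3*), beside 16.7% and 19.0% of all genes.

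In shCtrl cells 6 members rose and 4 fell with CCS1477 (15.4% and 9.91% of all genes), with a median of 0.02 against 0.06. *CCNE1* rose, at 8.86, 11.2 and 7.69 FPKM in shCtrl CCS1477 libraries, against 5.21, 5.67 and 5.39 FPKM in shCtrl DMSO libraries (0.74 ± 0.14, limma adjusted p = 0.00277). *LIG1* rose, at 9.47, 8.61 and 7.64 FPKM with CCS1477 and 6.15, 6.41 and 6.03 FPKM with DMSO (0.46 ± 0.10, limma adjusted p = 0.00586). *PRIM1* fell, at 9.96, 12.3 and 14.8 FPKM with CCS1477 and 19.5, 23.6 and 21.1 FPKM with DMSO (−0.80 ± 0.15, limma adjusted p = 0.0021). These 3 were the members called in every leave-one-out fit. *MCM2*, *MCM3*, *MCM5* and *ASF1B* also rose (0.33, 0.34, 0.57 and 0.31), and *CDC45*, *GMNN* and *RPA3* fell (−0.54, −0.32 and −0.26), in calls that did not survive every such fit. Leaving out 1 library gave 4 to 9 calls, 4 without shCtrl DMSO replicate 2 or 3 and 6 without shCtrl CCS1477 replicate 2. Same-numbered shCtrl libraries deviated together here, and with the replicate number as a block in a fit of these 6 libraries alone, chosen after seeing the data, 8 members rose and 7 fell. The share of all genes called in that fit was not taken, so that these counts cannot be set against it.

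**Figure D5:**
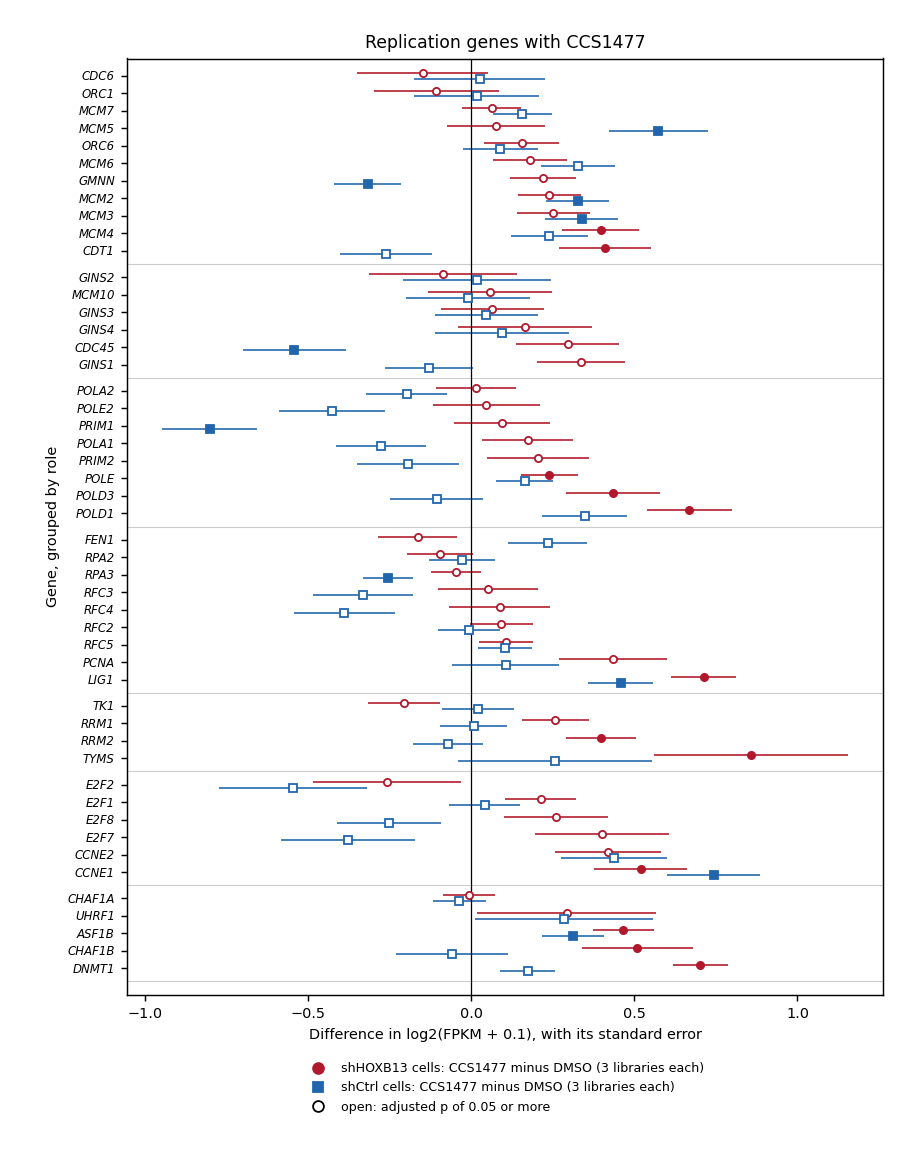
Log2 difference of each of the 49 genes between CCS1477 and DMSO in shHOXB13 and in shCtrl cells, by role (n = 3 per group), with bars of 1 SE. The differences lie between −0.80 and 0.86, *PRIM1* in shCtrl cells lowest and *TYMS* in shHOXB13 cells highest.

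As an interaction, the log2 difference made by CCS1477 in shHOXB13 cells minus that in shCtrl cells was positive for 5 members and negative for 0 (9.1% and 4.15% of all genes), with a median of 0.17 against 0.13. The share of members, 10.2%, was near that of all genes. *PRIM1* had 4.17, 3.31 and 3.18 FPKM in shHOXB13 CCS1477 and 3.20, 3.59 and 3.13 FPKM in shHOXB13 DMSO libraries, beside its fall in shCtrl cells (0.90 ± 0.21, limma adjusted p = 0.0162). *DNMT1* had 32.8, 34.7 and 29.1 FPKM in shCtrl CCS1477 and 28.9, 28.3 and 28.2 FPKM in shCtrl DMSO libraries, beside its rise in shHOXB13 cells (0.53 ± 0.12, limma adjusted p = 0.0143). The others were *CDC45* (0.84), *CDT1* (0.67) and *GMNN* (0.54). *PRIM1* and *DNMT1* were called in every leave-one-out fit, which gave 2 to 6 calls. Over all genes tested, 29.2% rose and 10.4% fell with CCS1477 in shHOXB13 cells, and 15.4% rose and 9.91% fell in shCtrl cells. Of the mitosis genes, 7 rose and 1 fell with CCS1477 in shHOXB13 cells, and 0 rose and 4 fell in shCtrl cells. The shares of mitosis and of other replication genes that rose in shHOXB13 cells were near that of all genes. Of the other replication genes, 17 rose and 2 fell in shHOXB13 cells, among them *DONSON*, a replication fork factor (1.33), and *DUT* (0.69), and 3 rose and 6 fell in shCtrl cells. Of the RB-E2F circuit, 11 rose and 3 fell in shHOXB13 cells, with *E2F3*, an activating E2F factor (0.74), *TFDP1* (0.55) and *CDKN1C* (1.39) higher and *CDKN1B* (−0.75), which encodes p27, lower.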

How the data were processed

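RNA-seq of 28 LNCaP libraries was deposited as FPKM per gene. The authors aligned reads with STAR 2.6.0 to hg38 (submitters' processing notes), counted reads per gene without strand and computed FPKM with their own script. FPKM is scaled to all mapped reads, so a library with a smaller share of reads in genes has lower values throughout. The deposited files hold no comparisons. Here whole reads were recovered from the FPKM steps for 99.98% of 453745 values above 0 (within 0.05 reads), which gave the depths. The SEs come from the limma fit and so from the spread between libraries. Read counts are given without an interval.

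Differences were tested with limma 3.58.1 (R 4.3.3) on log2(FPKM + 0.1), with a mean-dependent prior, in 1 fit per experiment. Genes entered at 0.1 FPKM or more in at least 2 libraries (knockdown, 17678 genes) or 3 libraries (CCS1477, 15907 genes), and p-values were adjusted over all of them. The study tested pairs of groups on counts, whereas the fit here shares 1 spread over all groups. The script was tested on simulated data. A median over the set is a description with no test. The members and the gene lists were chosen with earlier results of these data known. Named with values were, in each comparison, the 4 members with the largest called changes in each direction, members going against their role, and up to 4 genes of the other lists by smallest p.

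Alternatives were other pseudocounts, filters and scalings, only the compared groups in the fit, a replicate block, and leaving out each library. Same-numbered libraries correlated over 0.1 in their deviations in 4 of 56 pairs of the knockdown experiment and 3 of 18 of the CCS1477 experiment. These 3 (0.325, 0.145 and 0.144) were the shCtrl CCS1477 and shCtrl DMSO pairs, so numbers were taken to pair libraries in that comparison alone. RefSeq promoters were matched by symbol, and 8 members had no window. The hairpin sequences are not shown.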

Additional observations from a re-analysis of the deposited data

Results flagged for a closer look

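The effect of shp300/CBP differed between shHOXB13 and shCtrl cells for 12 members, by the limma test of the difference itself. In shHOXB13 cells these hairpins left both *EP300* and *CREBBP* uncalled, and the part of this in the differences was not tested. For members near the floor, the test cannot tell a smaller effect from a fall that had no room. *RRM2*, *CDC45* and *ASF1B* had under 10 reads in each library with shHOXB13 alone. *UHRF1* and *E2F7* were also low, with medians of 0.37 and 0.16 FPKM over all libraries. The interactions on the log2(FPKM + 0.1) scale were 3.92 for *RRM2*, 3.51 for *CDC45*, 3.42 for *ASF1B*, 2.91 for *CDC6*, 2.20 for *E2F1*, 2.13 for *TK1* and 2.09 for *UHRF1*. They were 1.73 for *E2F7*, 1.49 for *GINS1*, 1.34 for *MCM5*, 1.06 for *POLD1* and 0.74 for *MCM7*. Adjusted p-values ran from 0.000816 for *ASF1B* to 0.0495 for *UHRF1*. In the 8 fits that left out 1 library, *GINS1*, *UHRF1*, *MCM7* and *E2F7* each lost their calls in 7, *POLD1* in 5, *MCM5* in 4 and *CDC45* in 2.

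The effect of CCS1477 differed between shHOXB13 and shCtrl cells for 5 members by the same kind of test, a share of 10.2% beside 9.1% of all genes. The interactions were 0.90 for *PRIM1*, 0.84 for *CDC45*, 0.67 for *CDT1*, 0.54 for *GMNN* and 0.53 for *DNMT1*. *PRIM1* fell in shCtrl cells (−0.80) and differed by 0.09 in shHOXB13 cells, while *DNMT1* rose in shHOXB13 cells (0.70) and differed by 0.17 in shCtrl cells. In the 12 fits that left out 1 library, *CDT1* lost its call in 11, *GMNN* in 7 and *CDC45* in 6.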

How the results depend on the processing

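Of the fitted differences of single members under all alternatives, 8065 stayed on the same side of the threshold, 461 lost a call, 127 gained one and 0 called differences turned round. The sign of differences that were not called was not followed. Depth limits the low members of shHOXB13 cells, whose folds rest on few reads.

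With log2(FPKM + 1) the median over members was −0.85 (shHOXB13 vs shCtrl), −1.56 (shHOXB13 DMSO vs shCtrl DMSO), −0.56 (shCtrl+shp300), −0.66 (shCtrl+shp300/CBP) and 0.48 (interaction with shp300/CBP). At 1 FPKM or more, 1 member was called with shHOXB13+shCBP, and the shCtrl+shp300/CBP median was −0.77. With median-of-ratios scaling, the median was −0.97 (shHOXB13 vs shCtrl), −1.57 (shHOXB13 DMSO vs shCtrl DMSO) and 0.0055 (shHOXB13 CCS1477 vs shHOXB13 DMSO). That scaling called 1 member with shHOXB13+shCBP and 3 in the CCS1477 interaction. With TPM, 3 members were called with shHOXB13+shp300 and 1 with shHOXB13+shCBP, and the shCtrl+shp300/CBP median was −0.80. With only the compared groups in the fit, calls numbered 0 (shHOXB13+shp300), 7 (shHOXB13+shp300/CBP) and 4 (shCtrl CCS1477). Leaving out both shCtrl libraries numbered 1 of the CCS1477 experiment, chosen after seeing the data, gave 5 calls for shCtrl CCS1477, and left 48 for shHOXB13 DMSO and 5 for the interaction. The cause of these shifts was not tested.

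Leaving out 1 library at a time, each set against the group named in the report, calls ran from 31 to 34 (shHOXB13 vs shCtrl), 48 to 48 (shHOXB13 DMSO), 5 to 8 (shCtrl+shp300), 3 to 17 (shCtrl+shCBP), 15 to 21 (shCtrl+shp300/CBP), 0 to 1 (shHOXB13+shp300), 0 to 3 (shHOXB13+shCBP), 6 to 13 (shHOXB13+shp300/CBP), 0 to 1 (shHOXB13+shp300 vs shHOXB13+shCBP), 4 to 9 (shHOXB13 CCS1477), 4 to 9 (shCtrl CCS1477), 6 to 13 (the shp300/CBP interaction) and 2 to 6 (the CCS1477 interaction). The medians ran from −1.45 to −1.24 (shHOXB13 vs shCtrl), −1.94 to −1.85 (shHOXB13 DMSO), −0.80 to −0.68 (shCtrl+shp300), −1.01 to −0.73 (shCtrl+shCBP), −0.96 to −0.82 (shCtrl+shp300/CBP), −0.22 to 0.00 (shHOXB13+shp300), −0.31 to 0.05 (shHOXB13+shCBP), −0.30 to −0.13 (shHOXB13+shp300/CBP), −0.14 to 0.19 (shHOXB13+shp300 vs shHOXB13+shCBP), 0.14 to 0.24 (shHOXB13 CCS1477), −0.07 to 0.06 (shCtrl CCS1477), 0.61 to 0.77 (the shp300/CBP interaction) and 0.12 to 0.24 (the CCS1477 interaction). A group left with 1 library is assumed to vary like the others.

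The replicate block in the fit of all groups changed no count by over 1.5 times: it gave 42 calls for shHOXB13 vs shCtrl, 13 for shHOXB13+shp300/CBP, 12 for shCtrl+shp300, 23 for shCtrl+shCBP, 28 for shCtrl+shp300/CBP, 48 for shHOXB13 DMSO, 14 for shHOXB13 CCS1477, 12 for shCtrl CCS1477, and 8 and 5 for the interactions. In the knockdown experiment same-numbered libraries shared only a number, with correlations of −0.0581 to 0.118.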
